A study of Mus musculus with 14 samples.

Results

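The genes described here are 10 genes of the muscle-atrophy programme, chosen by symbol from the 24359 genes of the study: 6 ubiquitin ligase genes (Fbxo32, Trim63, Fbxo30, Fbxo31, Fbxo21 and Fbxo40) and 4 transcription factor genes (Foxo1, Foxo3, Foxo4 and Klf15). All 10 were found in every library and passed the filter on low values, which kept genes averaging 1 FPKM or more over the libraries compared. They were followed in tibialis anterior, the muscle along the shin, of C57Bl/6 mice treated with follistatin or serving as controls. Day 3 (acute) had 4 follistatin libraries and 3 control libraries. The chronic libraries were 4 with follistatin (2 of day 7 and 2 of day 14) and 3 controls (2 of day 7 and 1 of day 14), which the study's design treats as 1 set. The labels give no age or sex, and do not state how follistatin was given or what the controls received. Nothing in them says that each replicate was its own animal, and p-values therefore measure only the spread between these libraries. Levels are FPKM, fragment numbers that the authors scaled to transcript length and to the mapped fragments of the library, so levels of different genes are compared per length.

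Muscle loses protein through ubiquitin ligases that mark proteins for the proteasome. Most F-box proteins act as the substrate-binding subunit of SCF ligases, which are built on a cullin scaffold, whereas the RING protein of Trim63 is a ligase without that scaffold. FoxO transcription factors switch on many of these ligase genes in wasting muscle, and Akt kinase, downstream of insulin and IGF-1, keeps FoxO proteins out of the nucleus by phosphorylation. Klf15 encodes a transcription factor that glucocorticoids induce in muscle. Follistatin is a secreted protein that binds myostatin and activins, which restrain muscle growth and whose Smad signalling opposes Akt.

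Promoter sequences are shown for 3 genes that were called lower with follistatin in at least 1 set, to set a promoter with matches to a FoxO and a glucocorticoid motif beside others with neither. RefSeq gave a promoter for 8 of the 10 genes on GRCm38.p6, the assembly of mm10; Fbxo32 and Foxo4 had no entry. Each sequence is the 250 bases before the annotated start, 5′ to 3′ on the gene's strand. They are the Trim63 promoter at chr4:134314870-134315119 on the plus strand, the Klf15 promoter at chr6:90462326-90462575 on the plus strand and the Fbxo31 promoter at chr8:121578807-121579056 on the minus strand. Capitals mark matches to the motifs searched.
Trim63: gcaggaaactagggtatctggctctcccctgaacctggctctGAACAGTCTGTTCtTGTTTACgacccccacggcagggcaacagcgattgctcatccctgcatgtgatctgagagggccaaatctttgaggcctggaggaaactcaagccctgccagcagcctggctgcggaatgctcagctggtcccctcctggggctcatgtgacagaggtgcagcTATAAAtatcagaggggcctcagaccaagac
Klf15: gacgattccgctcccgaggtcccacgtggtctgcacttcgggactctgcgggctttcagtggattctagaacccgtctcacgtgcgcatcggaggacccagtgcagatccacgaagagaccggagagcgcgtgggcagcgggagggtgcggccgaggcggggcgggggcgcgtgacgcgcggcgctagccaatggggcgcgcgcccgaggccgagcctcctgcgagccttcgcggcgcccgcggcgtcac
Fbxo31: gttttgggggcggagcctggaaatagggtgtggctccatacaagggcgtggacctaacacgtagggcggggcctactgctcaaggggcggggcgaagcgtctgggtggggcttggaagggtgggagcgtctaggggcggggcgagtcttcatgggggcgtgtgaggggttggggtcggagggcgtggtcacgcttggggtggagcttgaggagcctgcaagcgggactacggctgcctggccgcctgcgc
Motifs were searched on both strands as the FoxO binding letters GTAAACA and CAAAACA, the glucocorticoid response element, GNACA and TGTNC with 3 bases between them, and the TATA box TATAAA. In the Trim63 promoter GAACAGTCTGTTC matched the glucocorticoid element at bases -208 to -196 before the start, TGTTTAC, the reverse complement of GTAAACA, lay at -194 to -188, and TATAAA lay at -31 to -26. The matches do not overlap. Among all 32851 promoters of the same length, 3.166% held GTAAACA, 5.561% CAAAACA, 0.387% the glucocorticoid element and 12.368% TATAAA. Trim63 was the only 1 of the 8 genes with a match to any of them. By GENCODE positions, the stretches of Foxo1, Fbxo21, Fbxo30 and Foxo3 overlapped exons of the same gene and were not wholly upstream of it. The Trim63 stretch had 56.8% G and C and 4 CpG pairs, against 72.0% and 37 in Klf15 and 68.0% and 18 in Fbxo31; the median promoter had 52.4% and 6. These matches describe the letters and not binding.

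Fst, the gene of follistatin itself, checked the labels. It had 60.4, 49.7, 52.5 and 67.8 FPKM in the follistatin libraries of day 3, against 1.01, 1.12 and 1.42 FPKM in their controls. It had 366.7 and 407.3 FPKM in the follistatin libraries of day 7 and 1314.8 and 1421.3 FPKM in those of day 14, against 0.808, 1.17 and 1.04 FPKM in the chronic controls. Muscle fibre markers summed to between 88254.9 and 102888.6 FPKM with follistatin at day 3, against 99350.3 to 107855.3 FPKM in controls. That sum is itself incomplete, because 1 of the 12 markers, Myh4, was listed at 0 in at least 1 library of day 3. In the chronic set 7 of the 12 were listed at 0 in at least 1 library, and their sum is not used. Summed FPKM over all genes lay between 364513 and 433552 in the chronic follistatin libraries, under 485755 to 510584 in the chronic controls, and between 486377 and 515812 with follistatin and 508717 and 532859 in controls at day 3. The part of the lower chronic sums in the chronic calls was not tested, and read numbers are not given in the sources used here. Over all genes, 168 of 11268 (1.49%) passed an adjusted p of 0.05 in limma at day 3 and 608 of 11047 (5.5%) in the chronic set. Chronic calls split into 247 higher and 361 lower, and into 389 higher and 239 lower after rescaling each library by its median ratio.

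In 2 chronic libraries, follistatin day 7 replicate 1 and follistatin day 14 replicate 2, values fell with transcript length over all genes, relative to the set's mean. Their median deviation from the set's mean was 0.13 and 0.24 (log2) for transcripts of up to 1000 bases and -0.26 and -0.33 for those over 6500 bases. In the other 2 follistatin libraries it went from -0.10 and -0.25 for transcripts of up to 1000 bases to 0.10 and 0.04 for those over 6500 bases. The controls went from -0.18, -0.16 and -0.12 to 0.22, 0.16 and 0.11. The set's mean includes all 7 libraries, so slopes in both directions are relative to it. Below, the 2 libraries with a length trend are the 2 that fall. At day 3 every library stayed between -0.09 and 0.09 in all length classes. Chronic results are therefore also given without these 2 libraries and with the length trend removed, both chosen after the data were seen.

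**Figure D1:**
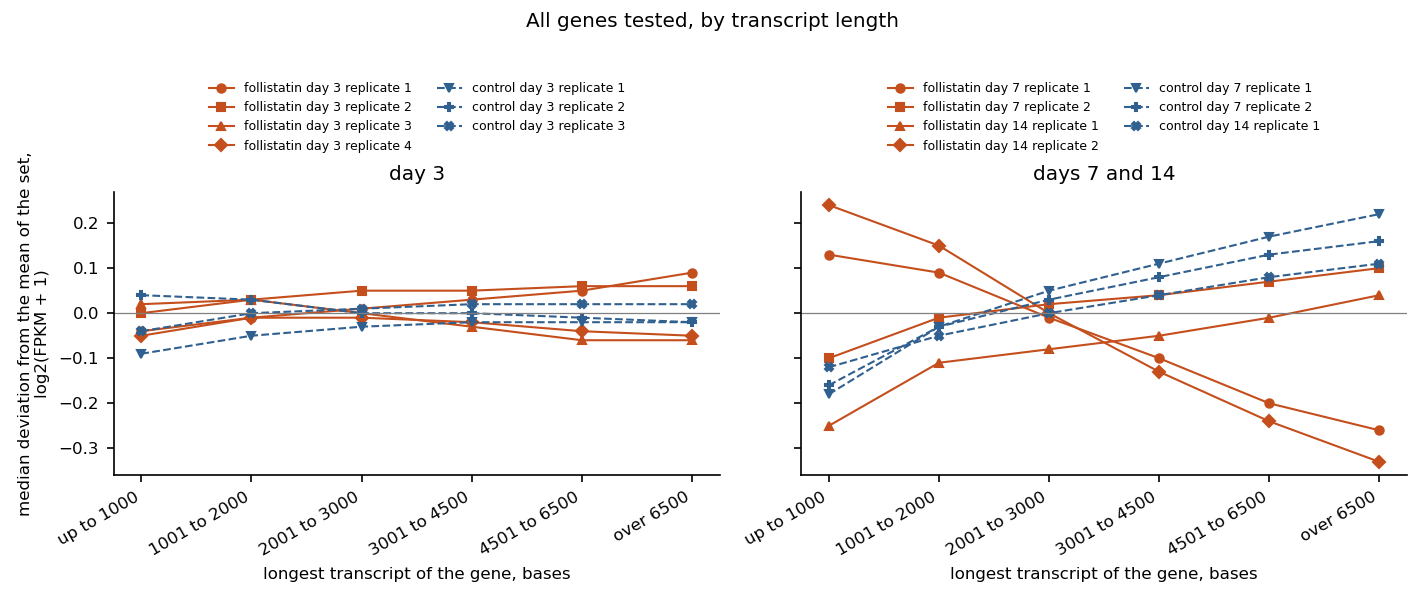
Median deviation of all tested genes from the mean of their set, on the log2(FPKM + 1) scale (y axis), by the length of the longest transcript in bases (x axis); solid lines are follistatin libraries and dashed lines controls. In the chronic set, 2 follistatin libraries run downward to -0.26 and -0.33 over 6500 bases, while the other 5 run upward; day 3 libraries stay within 0.09 of 0.

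Follistatin muscle had less Fbxo32 and less Trim63 mRNA than control muscle in both sets, with no overlap between libraries. Fbxo32 was 2.46-fold lower in the chronic set, where it passed the test, and 1.91-fold lower at day 3, where it did not. Trim63 was 1.42-fold lower at day 3, where it passed the test, and 1.32-fold lower in the chronic set, where it did not. Fbxo31 was 1.58-fold lower in the chronic set and passed the test there. Fbxo30, Fbxo21 and Fbxo40 passed no test. Foxo4, the most abundant FoxO mRNA, was 2.20-fold lower and Klf15 1.74-fold lower in the chronic set, both past the test. Foxo1 and Foxo3 did not pass.

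Fbxo32 (chr15:58175879-58214932, minus strand) encodes atrogin-1, the F-box subunit that in mouse muscle is induced in most forms of wasting. At day 3 it had 24.0, 21.4, 15.4 and 30.3 FPKM with follistatin, against 47.2, 33.3 and 49.9 FPKM in controls. All follistatin libraries lay under all controls, although follistatin replicate 4 came within a few FPKM of control replicate 2. Means were 22.8 ± 6.19 FPKM (SD, n = 4) and 43.5 ± 8.9 FPKM (SD, n = 3), a log2 difference of -0.92 with a standard error of 0.22, which missed the threshold (limma adjusted p = 0.0961, exact two-sided permutation p = 0.0571). Its chronic levels were 15.7 and 16.5 FPKM with follistatin at day 7 and 25.3 and 22.4 FPKM at day 14, against 50.1 and 52.5 FPKM in day 7 controls and 44.7 FPKM in the day 14 control. No follistatin library came near a control, and day 7 was below day 14 among the follistatin libraries. Means were 20.0 ± 4.62 FPKM (SD, n = 4) and 49.1 ± 3.99 FPKM (SD, n = 3), a log2 difference of -1.28 (95% interval -1.69 to -0.87) that passed (limma adjusted p = 0.0117). An exact permutation test gave 0.0286, the smallest p that the 35 splits of 7 libraries allow. The difference was -1.22 without the 2 libraries with a length trend (limma adjusted p = 0.0264) and -1.02 with the trend removed (limma adjusted p = 0.0264). The call was lost without control day 7 replicate 1 (limma adjusted p = 0.0878), control day 7 replicate 2 (0.0504) or control day 14 replicate 1 (0.0544), at log2 differences of -1.26, -1.23 and -1.35. Its annotation shares 186 exon bases with Gm15943 on the opposite strand, and the strand setting of the counting is not given in the sources used here.

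Trim63 (chr4:134315120-134329629, plus strand) encodes MuRF1, a RING ligase that binds the sarcomere and ubiquitinates thick-filament proteins. It was the highest of the 10 mRNAs per length, at the 96.1st percentile of tested genes in day 3 controls. Day 3 levels were 98.6, 87.4, 90.3 and 97.0 FPKM with follistatin, against 139.5, 130.2 and 128.0 FPKM in controls. Follistatin libraries lay within a narrow band well under the controls. Means were 93.3 ± 5.35 FPKM (SD, n = 4) and 132.6 ± 6.13 FPKM (SD, n = 3), a log2 difference of -0.50 (95% interval -0.66 to -0.35; limma adjusted p = 0.013). Over days 7 and 14 it had 88.0, 81.4, 85.9 and 101.8 FPKM with follistatin, the first pair from day 7, against 113.4 and 123.0 FPKM in day 7 controls and 116.0 FPKM in the day 14 control. Groups again did not overlap, but the log2 difference of -0.40 (95% interval -0.65 to -0.14) missed the threshold (limma adjusted p = 0.0737). It was called at -0.48 without the 2 libraries with a length trend (limma adjusted p = 0.0276) and at -0.40 with the trend removed (limma adjusted p = 0.0383). In 16 of 21 alternatives chronic Trim63 stayed uncalled, among them rescaling by the median ratio (-0.29, limma adjusted p = 0.193). The day 3 call was lost without control replicate 1 (limma adjusted p = 0.0665) or control replicate 2 (limma adjusted p = 0.0615), at -0.47 and -0.51.

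The ratio of Fbxo32 to Trim63 FPKM within a library was 0.243 ± 0.058 with follistatin and 0.328 ± 0.0676 in controls at day 3 (SD, n = 4 and n = 3), with overlapping libraries. The chronic ratio was 0.224 ± 0.0499 with follistatin and 0.418 ± 0.0295 in controls, with no overlap. These ratios are given as a description, without a test.

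**Figure D2:**
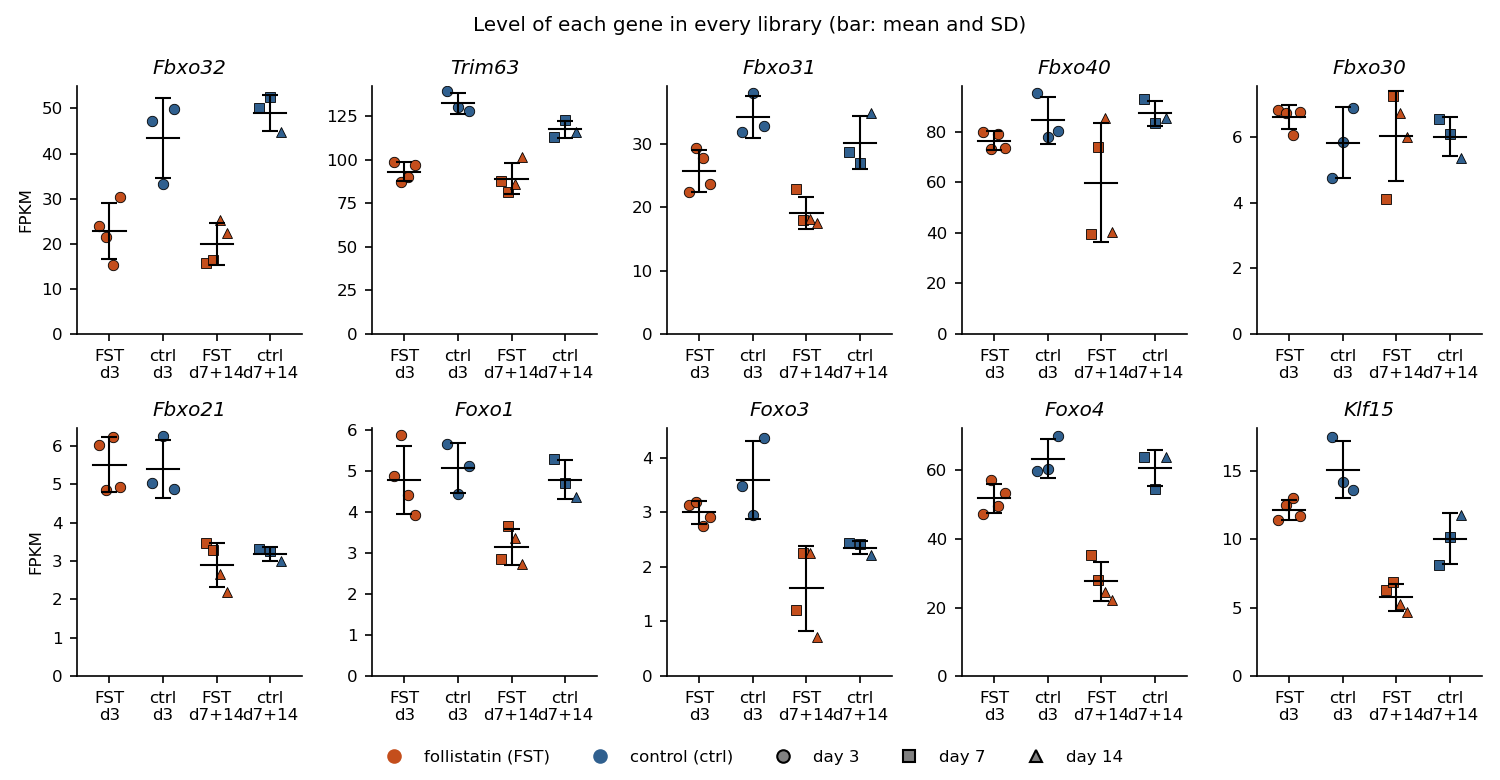
FPKM (y axis, from 0) of each gene in every library; FST is follistatin and ctrl control, d3 is day 3 and d7+14 the chronic set, marker shape gives the day, and bars show mean and SD. Fbxo32, Trim63, Fbxo31, Foxo4 and Klf15 separate by treatment in both sets and Foxo1 in the chronic set alone, while Fbxo40 and Foxo3 split the chronic follistatin libraries into a low pair and a pair near the controls.

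Fbxo31 (chr8:121549440-121578806, minus strand) encodes an F-box protein that targets cyclin D1 and, in mouse muscle, is among the FoxO-dependent ligases. At day 3 it had 22.3, 29.3, 27.7 and 23.6 FPKM with follistatin, against 31.8, 38 and 32.7 FPKM in controls. Groups did not overlap, and the log2 difference of -0.40 with a standard error of 0.11 missed the threshold (limma adjusted p = 0.148). Its chronic values were 22.8 and 18.0 FPKM with follistatin at day 7 and 18.1 and 17.5 FPKM at day 14, against 28.7 and 26.9 FPKM in day 7 controls and 34.8 FPKM in the day 14 control. All follistatin libraries were again the lower ones, with means of 19.1 ± 2.49 FPKM (SD, n = 4) and 30.1 ± 4.18 FPKM (SD, n = 3). The log2 difference was -0.63 (95% interval -0.94 to -0.32; limma adjusted p = 0.0414) and -0.70 without the 2 libraries with a length trend (limma adjusted p = 0.0322). With the length trend removed it was -0.46 and missed the threshold (limma adjusted p = 0.113). The call was lost when any single chronic library other than follistatin day 7 replicate 1 was left out (limma adjusted p 0.0234 to 0.172 over the 7 omissions).

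Fbxo40 (chr16:36963460-36990467, minus strand) encodes a muscle-restricted F-box protein whose ligase degrades the insulin receptor substrate IRS1. At day 3 it had 73.3 to 80.1 FPKM with follistatin, against 78.1 to 95.2 FPKM in controls, with overlap (limma adjusted p = 0.495). Chronic levels were 39.7 and 74.1 FPKM with follistatin at day 7 and 85.5 and 40.2 FPKM at day 14, against 93.0 and 83.5 FPKM in day 7 controls and 85.6 FPKM in the day 14 control. The low pair were the 2 libraries whose values fall with transcript length, and the longest Fbxo40 transcript has 5137 bases. That pair averaged 39.9 FPKM and the other 2 follistatin libraries 79.8 FPKM, against 87.4 FPKM in controls. The log2 difference was -0.62 over all libraries (95% interval -1.28 to 0.04; limma adjusted p = 0.196) and -0.13 without that pair (limma adjusted p = 0.388). With the length trend removed it was -0.41 (limma adjusted p = 0.286).

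Fbxo30 (chr10:11281330-11298052, plus strand) encodes MUSA1, an atrophy ligase that BMP signalling restrains in mouse muscle. It averaged 6.60 ± 0.358 FPKM with follistatin (SD, n = 4) and 5.82 ± 1.08 FPKM in controls (SD, n = 3) at day 3. The chronic averages were 6.02 ± 1.37 and 6.00 ± 0.592 FPKM in follistatin and control libraries. Groups overlapped in both sets, and the 95% intervals of the log2 difference ran from -0.10 to 0.44 at day 3 and from -0.41 to 0.38 in the chronic set (limma adjusted p = 0.559 and 0.957).

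Fbxo21 (chr5:117976730-118010201, plus strand), which encodes the FoxO-dependent mouse ligase SMART, had 4.85 to 6.23 FPKM with follistatin and 4.89 to 6.27 FPKM in controls at day 3. Chronic libraries had 2.19 to 3.46 FPKM with follistatin and 2.99 to 3.31 FPKM in controls. The 2 groups could not be separated at either time, with 95% intervals of the log2 difference from -0.25 to 0.31 at day 3 and from -0.43 to 0.20 in the chronic set (limma adjusted p = 0.948 and 0.593).

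Foxo4 (chrX:101254528-101260873, plus strand) made up most FoxO mRNA of this muscle per length. Day 3 levels were 47.3, 57.2, 49.5 and 53.3 FPKM with follistatin, against 59.9, 60.3 and 70.0 FPKM in controls. Groups lay side by side without overlap, and the log2 difference of -0.29 with a standard error of 0.09 missed the threshold (limma adjusted p = 0.187). Its chronic levels were 35.4 and 28.1 FPKM with follistatin at day 7 and 24.6 and 22.3 FPKM at day 14, against 63.8 and 54.7 FPKM in day 7 controls and 63.8 FPKM in the day 14 control. Every chronic follistatin library was far under every control, and both of day 14 were under both of day 7. Means were 27.6 ± 5.71 FPKM (SD, n = 4) and 60.8 ± 5.24 FPKM (SD, n = 3), a log2 difference of -1.13 (95% interval -1.50 to -0.75; limma adjusted p = 0.0131). It was -1.17 without the 2 libraries with a length trend (limma adjusted p = 0.0128) and -1.03 with the trend removed (limma adjusted p = 0.0146). The call was lost without control day 7 replicate 1 (-1.09, limma adjusted p = 0.0885) or control day 14 replicate 1 (-1.09, limma adjusted p = 0.0695).

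Foxo1 (chr3:52268336-52353221, plus strand), the FoxO factor that also acts on glucose and lipid use in muscle, had 4.88, 5.88, 4.41 and 3.92 FPKM with follistatin and 5.65, 4.43 and 5.11 FPKM in controls at day 3. These overlapped (limma adjusted p = 0.843). Chronic values were 2.84 and 3.65 FPKM with follistatin at day 7 and 3.37 and 2.73 FPKM at day 14, against 5.29 and 4.70 FPKM in day 7 controls and 4.35 FPKM in the day 14 control. Chronic groups did not overlap, but the log2 difference of -0.48 (95% interval -0.75 to -0.21) missed the threshold (limma adjusted p = 0.0547). Foxo1 has the longest transcript of the 10 genes, 8665 bases, and its difference was -0.35 without the 2 libraries with a length trend (limma adjusted p = 0.0767) and -0.21 with the trend removed (limma adjusted p = 0.156). It passed with all 14 libraries in 1 fit (-0.48, limma adjusted p = 0.0193) and without small RNA genes (limma adjusted p = 0.0474). It shares 674 exon bases with Gm20402 on the opposite strand.

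Foxo3 (chr10:42181841-42276755, minus strand), which drives Fbxo32 and autophagy genes in wasting mouse muscle, had 2.74 to 3.18 FPKM with follistatin and 2.94 to 4.36 FPKM in controls at day 3 (limma adjusted p = 0.533). Chronic libraries had 1.20 and 2.26 FPKM with follistatin at day 7 and 2.25 and 0.714 FPKM at day 14, against 2.44 and 2.41 FPKM in day 7 controls and 2.21 FPKM in the day 14 control. The low values were those of the 2 libraries with a length trend, as for Fbxo40. The log2 difference was -0.42 over all chronic libraries (95% interval -0.96 to 0.13; limma adjusted p = 0.279) and -0.04 without that pair (limma adjusted p = 0.766). With the length trend removed it was -0.16 (limma adjusted p = 0.531).

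Summed over Foxo1, Foxo3, Foxo4 and Foxo6, FoxO mRNA was 62.9 ± 4.82 FPKM with follistatin and 75.3 ± 5.83 FPKM in controls at day 3 (SD, n = 4 and n = 3). The chronic sum was 35.8 ± 6.88 FPKM with follistatin and 71.0 ± 4.9 FPKM in controls. Foxo4 held 81.5% to 83.6% of the sum with follistatin and 83.4% to 85.4% in controls at day 3, ranges that just overlap. Chronic libraries had a Foxo4 share of 74.6% to 79.5% with follistatin and 83.7% to 86.9% in controls, without overlap. These shares were not tested.

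Klf15 (chr6:90462576-90475238, plus strand) encodes the glucocorticoid-induced factor that promotes use of branched-chain amino acids in muscle. At day 3 it had 11.4, 12.5, 13.0 and 11.7 FPKM with follistatin, against 17.5, 14.2 and 13.6 FPKM in controls. The groups met without overlapping, and the log2 difference of -0.29 with a standard error of 0.1 missed the threshold (limma adjusted p = 0.226; exact permutation p = 0.0286). Over days 7 and 14 it had 6.28 and 6.88 FPKM with follistatin at day 7 and 5.25 and 4.69 FPKM at day 14, against 8.09 and 10.2 FPKM in day 7 controls and 11.8 FPKM in the day 14 control. Every follistatin library was under every control, with means of 5.78 ± 0.992 FPKM (SD, n = 4) and 10 ± 1.88 FPKM (SD, n = 3). The log2 difference was -0.70 (95% interval -1.07 to -0.33; limma adjusted p = 0.0465), close to the threshold. The call was lost when any 1 of the 7 chronic libraries was left out (limma adjusted p 0.0515 to 0.163) and without both libraries with a length trend (-0.64, limma adjusted p = 0.0769). With the trend removed Klf15 stayed called, at -0.66 (limma adjusted p = 0.0494).

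**Figure D3:**
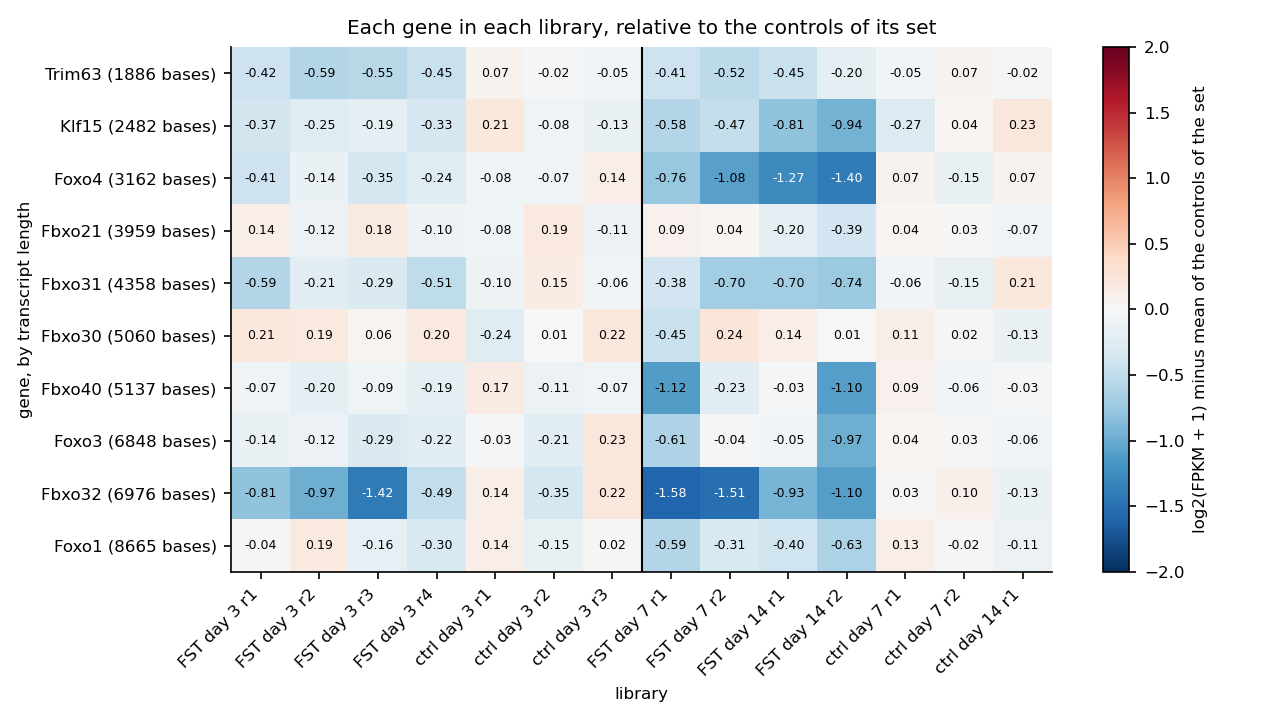
Difference of each library from the control mean of its set, on the log2(FPKM + 1) scale (colour and printed value), for each gene ordered by the length of its longest transcript; FST is follistatin, ctrl control and r replicate, and the vertical line separates day 3 from the chronic set. Fbxo32, Trim63, Fbxo31, Fbxo40, Foxo3, Foxo4 and Klf15 are below 0 in every follistatin library. Of these, Fbxo40 and Foxo3 have their lowest values, -1.12 and -0.97, in the 2 libraries with a length trend.

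Among day 3 controls the levels per length ran from Trim63 (132.6 ± 6.13 FPKM) through Fbxo40 (84.6 ± 9.24 FPKM), Foxo4 (63.4 ± 5.72 FPKM), Fbxo32 (43.5 ± 8.9 FPKM), Fbxo31 (34.2 ± 3.33 FPKM), Klf15 (15.1 ± 2.1 FPKM), Fbxo30 (5.82 ± 1.08 FPKM), Fbxo21 (5.40 ± 0.759 FPKM) and Foxo1 (5.06 ± 0.61 FPKM) to Foxo3 (3.59 ± 0.717 FPKM; SD, n = 3 each). Neighbours in that order overlapped between libraries for Fbxo32 and Fbxo31 and among Fbxo30, Fbxo21 and Foxo1.

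Counted together, 1 of the 10 genes was called lower at day 3, where 0.568% of all tested genes were, and 4 of 10 in the chronic set, where 3.27% of all tested genes were. None was called higher, against 0.923% and 2.24% of all tested genes. Follistatin libraries lay under controls without overlap for 5 of the 10 genes at day 3 and 6 of 10 in the chronic set, against 6.8% and 21.5% of all tested genes. The median log2 difference of the 10 genes was -0.24 at day 3 and -0.55 in the chronic set, beside 0.01 and -0.09 over all tested genes. Without the 2 libraries with a length trend, 4 of 10 were called lower (Fbxo31, Fbxo32, Foxo4 and Trim63), against 6.44% of all genes. With the trend removed, 4 of 10 were called lower (Fbxo32, Foxo4, Klf15 and Trim63), against 3.38%. Rescaling by the median ratio left 2 of 10, Fbxo32 and Foxo4, against 2.16% of all genes.

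**Figure D4:**
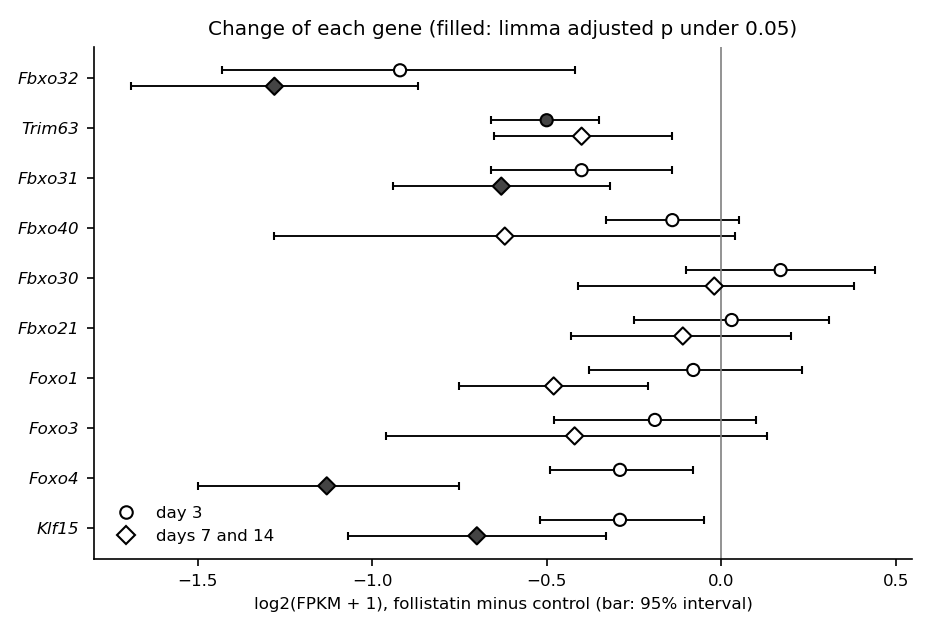
Log2 difference, follistatin minus control, on the log2(FPKM + 1) scale (x axis) with its 95% interval from limma, for each gene at day 3 (circles) and in the chronic set (diamonds); filled symbols passed an adjusted p of 0.05. Trim63 is filled at day 3, and Fbxo32, Fbxo31, Foxo4 and Klf15 in the chronic set, all below 0.

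In the authors' deposited table for day 3, significance was given to Fbxo32, Trim63, Fbxo31 and Foxo4, all lower with follistatin, at log2 fold changes of -0.97, -0.54, -0.44 and -0.33 (q = 0.00191 for all but Foxo4, whose q was 0.0317). In the authors' deposited table for the chronic set it was given to 6 of the 10 genes, all lower: Fbxo32 at -1.31, Foxo4 at -1.15, Klf15 at -0.80, Fbxo31 at -0.66, Foxo1 at -0.62 and Fbxo40 at -0.57. In the same authors' deposited table Trim63 had -0.40 and q = 0.0923. The authors' deposited tables marked 3.19% of tested genes as significant and lower at day 3 and 11.2% in the chronic set.

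Whether the response differed between the chronic set and day 3 was tested as the difference of both effects over all 14 libraries. None of the 10 genes passed, against 0.0884% of all tested genes. An unadjusted p under 0.05 (limma) was found for 2 of them, Foxo4 and Foxo1, and for 1678 of all 11306 tested genes. Foxo4 came closest, with -1.13 in the chronic set and -0.29 at day 3, a difference of -0.84 (95% interval -1.26 to -0.43; limma adjusted p = 0.145). It passed when follistatin day 7 replicate 1 was left out (-0.96, limma adjusted p = 0.0343). The difference was -0.41 for Klf15 and -0.40 for Foxo1 (limma adjusted p = 0.339 and 0.315), and for Fbxo32 it was -0.36 with an interval from -1.02 to 0.30. Trim63 had an interval from -0.16 to 0.37. The median over all tested genes was itself -0.11 on this scale, and rescaling by the median ratio brought the Foxo4 value to -0.71 (limma adjusted p = 0.21).

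Summed markers of several other cell types were lower with follistatin in these whole-muscle libraries, in which fewer cells of a type and less RNA per cell cannot be told apart. FPKM is scaled to the mapped fragments of a library, so these sums are relative and not amounts of RNA. Endothelial markers (12 genes) summed to 162.8 to 188.2 FPKM with follistatin and 195.1 to 212.1 FPKM in controls at day 3, and to 115.0 to 179.9 FPKM with follistatin and 197.1 to 255.5 FPKM in controls in the chronic set. Smooth muscle and pericyte markers (11 genes) summed to 250.7 to 314.1 FPKM with follistatin and 315.3 to 344.8 FPKM in controls at day 3. Their chronic sums were 77.2 to 167.0 FPKM with follistatin and 208.2 to 266.0 FPKM in controls. Adipocyte markers (8 genes) summed to 357.7 to 392.4 FPKM with follistatin and 413.5 to 467.9 FPKM in controls at day 3. Their chronic sums were 218.7 to 389.1 FPKM with follistatin and 392.5 to 491.8 FPKM in controls. Of these lists 1 gene was called, an endothelial marker in the chronic set. The chronic sums of Schwann cell and satellite cell markers were also lower with follistatin, without overlap. Sums of macrophage, fibroblast, neutrophil and red blood cell markers overlapped between the groups in both sets. The part of other cell types in the levels of the 10 genes was not tested.

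Genes that control FoxO proteins moved in both directions. Irs1, which carries the insulin and IGF-1 signal to Akt and is the substrate of the Fbxo40 ligase, had 29.5 ± 3.07 FPKM with follistatin and 12.0 ± 1.27 FPKM in controls at day 3 (SD, n = 4 and n = 3). It rose by 1.23 on the log2 scale at day 3 (limma adjusted p = 0.00222) and by 0.64 in the chronic set, with 27.5 ± 4.08 and 17.3 ± 2.64 FPKM in follistatin and control libraries (limma adjusted p = 0.0497). The chronic value was 0.71 without the 2 libraries with a length trend (limma adjusted p = 0.0626) and 0.91 with the trend removed (limma adjusted p = 0.0155), and its call was lost in 11 of 21 alternatives. Sgk1, a glucocorticoid-induced kinase that phosphorylates FoxO3, fell to 60.4 ± 4.71 FPKM with follistatin, against 112.8 ± 11.1 FPKM in controls, in the chronic set (log2 difference -0.89, limma adjusted p = 0.01). Ep300, an acetyltransferase that acts on FoxO proteins, and Dyrk1a, a kinase of FoxO1, fell there by 0.75 and 0.63 on the log2 scale (limma adjusted p = 0.0403 and 0.0432). With the length trend removed Ep300 had -0.47 and Dyrk1a -0.39 (limma adjusted p = 0.0218 and 0.026), and without the 2 libraries with that trend they had -0.52 and -0.44 (limma adjusted p = 0.0262 and 0.0445). Their calls were lost in 9 and 10 of 21 alternatives. In all, 1 of 25 regulators was called higher and none lower at day 3, and 1 of 24 higher and 3 lower in the chronic set, with list medians of 0.02 and -0.27.

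Other genes known as FoxO targets were called lower in 5 of 33 cases in the chronic set and in 1 of 33 at day 3. Of all tested genes 3.27% and 0.568% were called lower. Ulk1, the kinase that starts autophagy, fell to 12.9 ± 0.303 FPKM with follistatin, against 21.7 ± 1.53 FPKM in controls, at day 3 (SD, n = 4 and n = 3; log2 difference -0.70, limma adjusted p = 0.0054). It was also lower in the chronic set, with 11.5 ± 1.34 and 21.8 ± 2.21 FPKM in follistatin and control libraries (log2 difference -0.86, limma adjusted p = 0.0129). Cat, the gene of the peroxide-degrading enzyme catalase, fell to 27.6 ± 1.46 FPKM with follistatin, against 46.8 ± 3.22 FPKM in controls (limma adjusted p = 0.0109). Pik3ip1, an inhibitor of PI3 kinase, fell by 0.87 and Map1lc3b, an autophagosome protein, by 0.60 on the log2 scale (limma adjusted p = 0.0193 and 0.0281). The fifth, Ccng2, an atypical cyclin, fell by 0.79 (limma adjusted p = 0.0428) and was chosen after its values were seen. Its call was lost in 12 of 21 alternatives, among them removal of the length trend (-0.71, limma adjusted p = 0.0504), and was kept without the 2 libraries with that trend (-0.82, limma adjusted p = 0.0315). The Map1lc3b call was lost in 8 of 21 alternatives and kept in both on length. None of the 33 was called higher in the chronic set, but 11 had a log2 difference above 0, beside 4328 of all 11047 tested genes. At an unadjusted p under 0.05 (limma), 4 of the 33 were higher and 14 lower. Of all tested genes 993 were higher and 2131 lower at that threshold. The largest chronic change on the list was a rise, of Gadd45a by 1.84 (limma adjusted p = 0.0507), without overlap. Gadd45a was also chosen after its values were seen. At day 3 Rab7, a small GTPase of late endosomes, rose by 0.34 (limma adjusted p = 0.0285) and lost its call in 9 of 18 alternatives. List medians were 0.03 at day 3 and -0.31 in the chronic set.

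Other ubiquitin ligases of muscle had no gene called lower. Of 26, 1 was called higher at day 3 and 2 in the chronic set, and the list medians were 0.0 and -0.21. Nedd4l, a HECT-type ligase of membrane proteins, rose to 7.07 ± 0.732 FPKM with follistatin, against 3.86 ± 0.264 FPKM in controls, at day 3 (limma adjusted p = 0.0133). Fbxl22, an F-box protein of the sarcomeric Z-disc, rose to 5.45 ± 1.31 FPKM with follistatin, against 1.54 ± 0.244 FPKM in controls, in the chronic set (limma adjusted p = 0.0117). Trim72, which acts in membrane repair, rose by 0.58 on the log2 scale there (limma adjusted p = 0.043). The Trim72 call was lost in 9 of 21 alternatives, among them the omission of the 2 libraries with a length trend (0.53, limma adjusted p = 0.0558), and was kept with the trend removed (0.60, limma adjusted p = 0.036). The scaffold of SCF ligases and the ubiquitin supply had no gene called among 22 at day 3 and 21 in the chronic set (limma). In each set 4 of them had an unadjusted p under 0.05 (limma). So did 1711 of all 11268 tested genes at day 3 and 3124 of 11047 in the chronic set. At day 3 the conjugating enzyme gene Ube2d1 had a log2 difference of 0.29 (limma adjusted p = 0.114). Closest in the chronic set were Rps27a, a ubiquitin and ribosomal fusion gene, at 0.72, and the scaffold gene Cul1 at -0.50 (limma adjusted p = 0.0644 and 0.0755). Rps27a was called in 7 of 21 alternatives, among them the omission of the 2 libraries with a length trend (0.47, limma adjusted p = 0.0434) and removal of the trend (0.58, limma adjusted p = 0.026), and Cul1 in 1.

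Glucocorticoid receptor and target genes had no call among 20 at day 3. An unadjusted p under 0.05 (limma) was found there for 5 of these 20 and for 1711 of all 11268 tested genes. At day 3 Hsd11b1, which regenerates active glucocorticoid, had -0.40 and the transcription factor gene Zbtb16 0.63 (limma adjusted p = 0.0961 and 0.107). In the chronic set 1 of 19 was called, Sgk1, which is also on the regulator list. List medians were -0.17 and -0.36. Among other Foxo and Klf genes none of 12 was called at day 3 (limma; 2 had an unadjusted p under 0.05), where the factor genes Klf9 and Klf12 had -0.34 and 0.41 (limma adjusted p = 0.0844 and 0.188). In the chronic set 1 of 11 was called, Klf9, also induced by glucocorticoids, which fell to 19.0 ± 5.61 FPKM with follistatin, against 41.4 ± 2.68 FPKM in controls (log2 difference -1.13, limma adjusted p = 0.0334, lost in 7 of 21 alternatives). The list medians were 0.0 and -0.40.

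**Figure D5:**
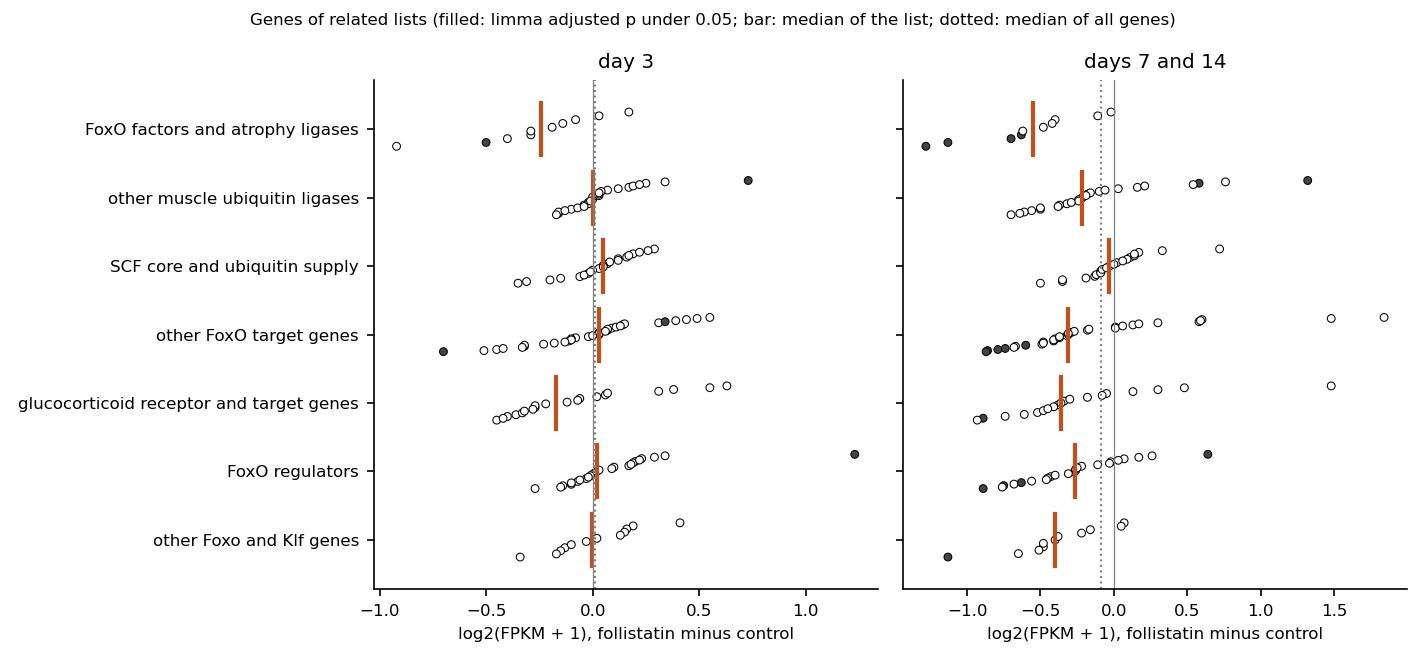
Log2 difference, follistatin minus control, on the log2(FPKM + 1) scale (x axis) of every tested gene of each list (rows) at day 3 (left) and in the chronic set (right); filled points passed an adjusted p of 0.05, the bar is the median of the list and the dotted line that of all tested genes. The top row, the 10 genes described, has medians of -0.24 and -0.55, while other muscle ubiquitin ligases have 0.0 and -0.21.

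Over the 14 libraries, after each set was centred on its own mean, the genes most like Fbxo32 among 10139 ranked were Zranb1, a deubiquitinase gene (r = 0.95), Rai14 (r = 0.94), Crebrf (r = 0.94), Nfe2l2, which encodes the antioxidant factor NRF2 (r = 0.92), and Pnrc1, a nuclear receptor coactivator gene (r = 0.91). Those most like Trim63 were Mpp3 (r = 0.96), Ifngr2, an interferon-gamma receptor subunit gene (r = 0.95), the kinase gene Stk10 (r = 0.94), Pnrc1 (r = 0.92) and Mrln, which encodes a micropeptide that inhibits the calcium pump SERCA (r = 0.92). Pnrc1 stood on both lists. Trim63 ranked 28 for likeness to Fbxo32 (r = 0.88), and Fbxo32 ranked 21 for likeness to Trim63. Foxo4 ranked 367 for Fbxo32 (r = 0.74), while Fbxo30 and Fbxo21 had r of 0.01 and -0.13. These correlations describe 14 libraries split by the same treatment and scaled to FPKM, and carry no test.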

How the data were processed

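Poly(A) RNA of 14 tibialis anterior libraries went through Illumina's TruSeq RNA library kit according to the labels. The authors aligned reads with TopHat to mm10 and computed FPKM with Cuffdiff, per the submitters' processing notes; versions and strand setting are not given in the sources used here. Each library's deposited table gives an FPKM value for every gene. Deposited tables of the authors' Cuffdiff comparisons hold log2 fold changes, test scores, p-values and q-values, per the file headers. Read numbers are unknown. From the steps between values under 0.5 FPKM, 79.2% to 83.8% of which met whole-number ratios within 0.02 (log2), day 3 libraries had 0.683 to 1.27 times the depth of control day 3 replicate 1. In the chronic libraries 51.6% to 62.6% did, too few to settle their depth.

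The acute and chronic sets had separate limma fits (version 3.58.1, R 4.3.3; lmFit, eBayes with trend, two-sided) on log2(FPKM + 1), which understates changes of low genes, over genes that averaged 1 FPKM or more in the set. Of 24386 genes listed, 27 with symbols turned into dates were left out, as were the genes the authors marked HIDATA (too many reads to estimate; 4 at day 3 and 31 in the chronic set). Benjamini-Hochberg adjustment ran over all genes tested, and a gene was called at an adjusted p under 0.05. The difference of effects was an interaction over 14 libraries. Exact permutation tests used the 35 splits of a set. The fits were tested on simulated data.

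The 10 genes, the related lists and the cell type markers were chosen with earlier results of these data known. The text names the 10 genes, Fst, up to 4 called genes of each related list in each set by smallest p (the 2 with the smallest p where none was called) and the 5 genes most like Fbxo32 and Trim63, without small RNA, predicted and RIKEN genes. One gene that this rule names is not reported here. Transcript lengths and positions are from GENCODE M21 (mm10); lengths matched 96.8% of tested genes. Promoters are from RefSeq on GRCm38.p6. Alternatives were a pseudocount of 0.1, no filter or one at a mean of 5 FPKM, median ratio or quantile normalization, robust eBayes, a replicate block, day as a covariate, a single fit of all libraries, day 7 alone, no small RNA genes (1284), HIDATA genes kept, each library left out, and the 2 on transcript length, the trend being removed by lowess with a span of 0.3.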

Additional observations from a re-analysis of the deposited data

Results flagged for a closer look

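A library stood apart from the others of its group in 2 of the 20 groups of 4 follistatin libraries examined, 1 for each gene and set; chance flags about 1 in 20 such groups. Fbxo30 in follistatin day 3 replicate 3 had 6.07 FPKM, below 6.74 to 6.83 FPKM in the other 3. Fbxo31 in follistatin day 7 replicate 1 had 22.8 FPKM, above 17.5 to 18.1 FPKM in the other 3 chronic follistatin libraries, and still below all controls. Groups of 3 were not examined in this way.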

How the results depend on the processing

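Directions held in all alternatives run for Fbxo32, Trim63, Fbxo31, Foxo4, Klf15 and Foxo1 in both sets, with calls that depended on the libraries kept. At day 3, where 1 of the 10 genes was called, the count was 2 without small RNA genes (Trim63, and Fbxo32 at a limma adjusted p of 0.0382) and 0 with a replicate block (Trim63 at 0.137), and 0 to 1 with each library left out. In the chronic set, where 4 were called, it was 2 with no filter, with median ratio rescaling or with day as a covariate (Fbxo32 and Foxo4 each time), 1 on day 7 libraries alone (Fbxo32) and 0 with a replicate block, 6 with all 14 libraries in 1 fit (Foxo1 and Trim63 added), 5 without small RNA genes (Foxo1 added), and 0 to 3 with each library left out. For the difference of effects, with 0 called, leaving out each library gave 0 to 1. Deviations of follistatin and control libraries of the same day and number had r from -0.06 to 0.11, beside -0.12 to 0.09 for other pairs. With so few libraries these values cannot decide whether the numbers pair libraries. With the block limma called 13 genes at day 3, against 168 without it. It called 0 in the chronic set (2612 at an unadjusted p under 0.05), against 608, and 3 for the difference, against 10. Over all genes the chronic count was 284 with no filter, 963 without small RNA genes, 2071 with all libraries in 1 fit, 1216 without the 2 libraries with a length trend, 30 on day 7 alone and 43 to 907 with each library left out. At day 3 it was 266 without small RNA genes and 39 to 165 with each library left out. For the difference it was 2 with no filter, 6 with median ratio rescaling, 24 with HIDATA genes kept and 2 to 32 with each library left out. Where directions turned, the cause was not tested. Fbxo21 at day 3 was at -0.03 to 0.12 with each library left out, and in the chronic set at 0.01 with quantile normalization and 0.03 on day 7 alone or with the length trend removed. Fbxo30 in the chronic set was at 0.08 with the median ratio, 0.09 with quantile normalization, 0.19 in both alternatives on length and -0.10 to 0.13 with each library left out. In the difference of effects, the alternatives on length gave 0.02 and 0.03 for Fbxo30, 0.02 for Fbxo21, 0.01 for Fbxo40 and 0.15 and 0.04 for Foxo3, against -0.18, -0.14, -0.48 and -0.23 for these 4 genes over all libraries with no such step. Under a filter of 5 FPKM, Foxo1 and Foxo3, and Fbxo21 in the chronic set, were not tested. Unknown read numbers leave the precision of Foxo3, Fbxo21 and Foxo1, the lowest of the 10 genes, unsettled.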
